A study of Mus musculus with 71 samples.

Results

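The 8 genes described here, Dclk1, Pou2f3, Trpm5, Il25, Il17rb, Sucnr1, Alox5ap, and Avil, are markers of tuft cells and were chosen by name, out of 24475 genes in each of 3 bulk RNA-sequencing tables. Tuft cells are rare chemosensory cells of the gut epithelium, set apart by the transcription factor Pou2f3. They sense luminal metabolites such as succinate through receptors that open the cation channel Trpm5, and they make IL-25 and cysteinyl leukotrienes, which act on group 2 innate lymphoid cells. In the small intestine these lymphoid cells answer with IL-13, which drives the epithelium to make more tuft and goblet cells.

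All mice were female and on the C57BL/6 strain, and the Btnl2-KO mice were homozygous for a LacZ cassette inserted in Btnl2, a butyrophilin-like gene of the gut epithelium, and were compared with WT littermates. The IEC fraction, epithelial cells released with EDTA and taken from the top of a density gradient, gave 16 libraries of 7-week-old mice, namely 2 Btnl2-KO and 3 WT libraries of the duodenum, 3 and 3 of the jejunum, and 3 and 2 of the ileum. The γδ IEL fraction, T cells sorted as CD45+ TCRβ- TCRγδ+ and pooled from 2 mice per library, gave 22 libraries at 10 weeks by the labels, with 3 Btnl2-KO and 4 WT libraries of the duodenum, 4 and 4 of the jejunum, and 3 and 4 of the ileum. Tissue of the small intestine gave 7 Btnl2-KO and 7 WT libraries and colon tissue 7 and 6, from mice labelled YNG, with no age in weeks, no segment, and no treatment named.

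Total counts per library were 15397757 to 38258478 for IECs, 13444964 to 30029485 for γδ IELs, and 13619314 to 21708727 for tissue. Levels are given in CPM, counts scaled to TMM-adjusted library sizes, and a count of 0 in a library allows up to 0.220 CPM in tissue, 0.195 in IECs, and 0.223 in γδ IELs, by counting error only. Because the libraries are bulk, fewer tuft cells and less RNA per tuft cell cannot be told apart.

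The libraries were checked against Btnl2 and markers of their origin before the genes were compared. Btnl2 stood at 0.342 to 0.595 CPM in 6 of the 8 Btnl2-KO libraries of IECs, at 5.45 and 19.5 CPM in the other two, and at 25.1 to 67.7 CPM in the 8 WT libraries. In tissue it was 0.674 to 2.44 CPM in Btnl2-KO and 23.9 to 103 CPM in WT small intestine, and at most 0.0453 and at least 0.651 CPM in Btnl2-KO and WT colon. The Btnl2-KO IEC libraries labelled duodenum 1 and jejunum 2 held the ileal gene Fabp6 at 220 and 484 CPM, against at most 20.2 CPM in the WT libraries of those segments. The Btnl2-KO library labelled ileum 1 held Fabp6 at 0.231 CPM, against 580 and 586 CPM in WT ileum, and Gata4, a gene of the proximal small intestine, at 153 CPM against 29.9 and 34.9. These 3 libraries go against their segment labels and are called by those labels here. Duodenum 1 and jejunum 2 are also the libraries with Btnl2 at 5.45 and 19.5 CPM, above the other Btnl2-KO libraries, so that their genotype label is in doubt as well, and results by genotype are given with and without them. Of the small intestine tissue libraries, all but Btnl2-KO 1 and WT 5 had Fabp6 at 1174 CPM or more, and WT 2 and WT 3 carried Car1, a colon gene, at 846 and 1624 CPM.

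The genes lie on 6 chromosomes (GRCm38.p6, RefSeq gene spans). Dclk1 is at chr3:55242303-55539068, Sucnr1 at chr3:60081869-60087566, Alox5ap at chr5:149265004-149288153, and Trpm5 at chr7:143071529-143094642. Pou2f3 is at chr9:43123927-43205755, Avil at chr10:127000065-127020994, Il17rb at chr14:29996168-30008896, and Il25 at chr14:54932695-54935837. Because Pou2f3 is a POU-family factor and several of the genes rose and fell together between libraries, the POU octamer ATGCAAAT (reverse complement ATTTGCAT) and its first 7 bases, ATGCAAA (reverse complement TTTGCAT), were searched on both strands in the 250 bases before each RefSeq start (GRCm38.p6). Windows were found for 5 of the 8 genes, 6 windows in all since Dclk1 has 2 starts. The octamer was in 1 of these 6 windows (Sucnr1) and in 1.60% of all 32851 windows, and the 7 bases, which every octamer contains, were in 2 of 6 (Sucnr1 and Avil) and in 4.12% of all. Both windows are shown 5′ to 3′ on the gene's own strand (plus), ending at the base before the start, with the match in capitals, for chr3:60081619-60081868 (Sucnr1) and chr10:127000459-127000708 (Avil).
Sucnr1: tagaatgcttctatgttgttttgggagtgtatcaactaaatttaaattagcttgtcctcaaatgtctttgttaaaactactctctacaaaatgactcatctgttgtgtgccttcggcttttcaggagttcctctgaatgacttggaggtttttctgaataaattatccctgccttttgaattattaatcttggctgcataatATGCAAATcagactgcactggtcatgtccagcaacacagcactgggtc
Avil: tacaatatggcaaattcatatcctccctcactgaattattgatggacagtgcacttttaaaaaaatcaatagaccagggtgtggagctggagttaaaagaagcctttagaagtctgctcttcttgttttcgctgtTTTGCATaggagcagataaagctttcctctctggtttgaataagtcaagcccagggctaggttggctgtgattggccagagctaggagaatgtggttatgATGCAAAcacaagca
The octamer of Sucnr1 begins 48 bases before its start, and the 2 matches of Avil, 1 on each strand, begin 15 and 115 bases before its start. A match of these letters is a description of the window and not a binding site.

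The 8 genes had their highest levels in CPM in the tissue table, which was normalized apart from the other tables. In WT small intestine, Dclk1, a doublecortin-like kinase, had its lowest library at 17.2, its median at 36.8, and its highest at 78.6 CPM. Trpm5 went from 8.37 over a median of 21.7 to 83.4 CPM, and Avil, the actin-binding protein advillin, from 9.17 over 18.3 to 71.4 CPM. Alox5ap, which presents arachidonic acid to 5-lipoxygenase and is also made by myeloid cells, went from 3.64 over 5.20 to 32.9 CPM. Each of these genes had a highest library at over 4 times its lowest. Il17rb, a subunit of the IL-25 receptor, went from 3.15 over 6.33 to 13.1 CPM and Pou2f3 from 2.28 over 4.27 to 16.7 CPM. Sucnr1, the succinate receptor, went from 0.543 over 2.18 to 8.13 CPM. Il25 reached 10 counts in only 2 of the 27 tissue libraries, small intestine Btnl2-KO 3 with 16 counts and WT 1 with 15, and fell under the minimum for testing in every comparison.

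**Figure D1:**
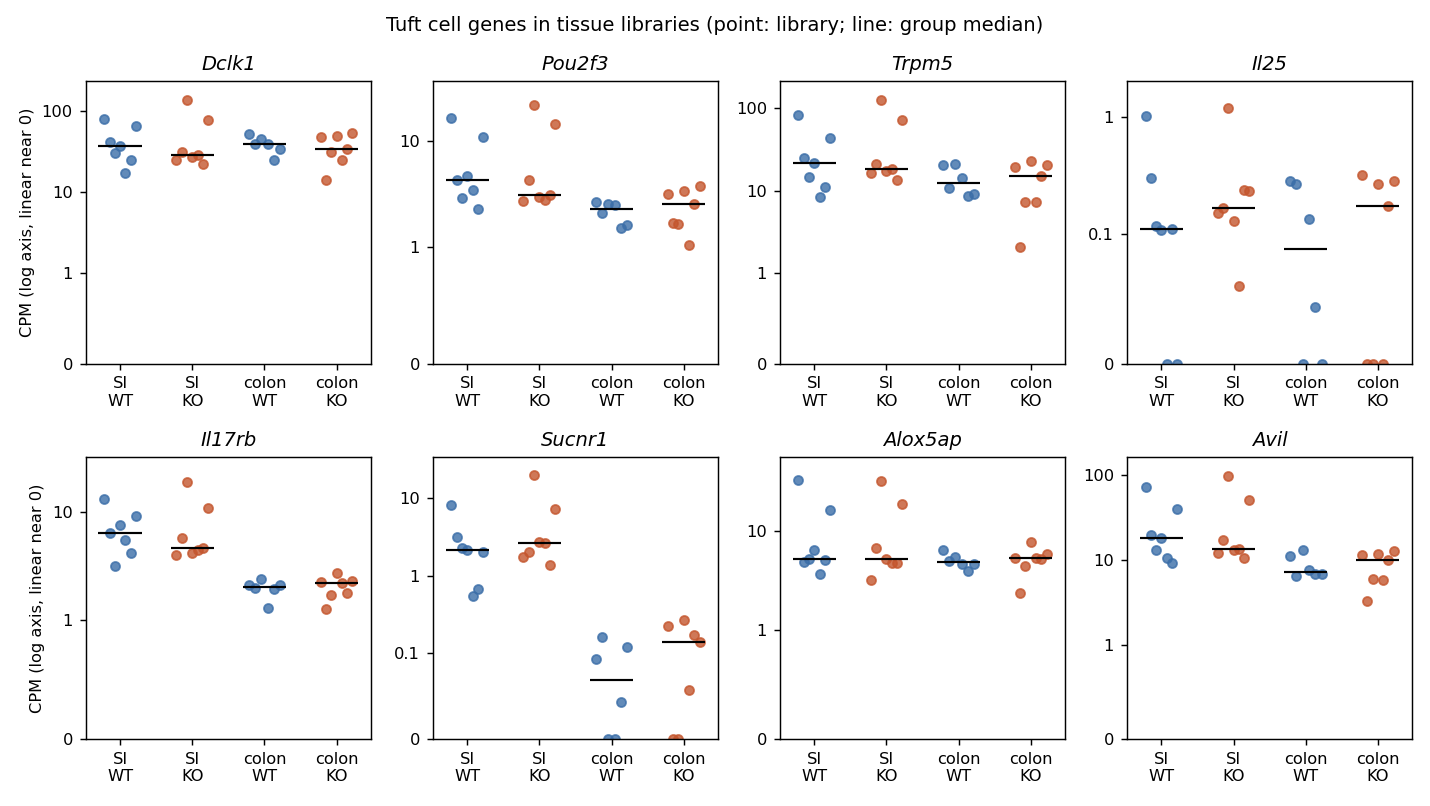
Level of each of the 8 genes in the 27 tissue libraries, in CPM on an axis that is logarithmic above and linear near 0. Points are libraries, lines are group medians, SI is small intestine, blue is WT, and orange is Btnl2-KO. In 6 of the 8 panels 4 small intestine libraries, 2 of each genotype, lie above the other 10, and Sucnr1 and Il17rb are the genes whose small intestine and colon libraries do not overlap in either genotype. The share of all genes without such overlap is not given.

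Levels are comparable between genes only per length. Per kilobase of annotated exon (15.3 kb for Dclk1, 6.40 kb for Trpm5, 3.40 kb for Avil, 1.42 kb for Alox5ap), mean levels in WT small intestine were 7.66 ± 6.64 CPM per kb for Avil (SD, n = 7) and 7.48 ± 7.54 for Alox5ap. Trpm5 stood at 4.63 ± 4.13, Dclk1 at 2.75 ± 1.45, Pou2f3 at 2.09 ± 1.73, Il17rb at 1.88 ± 0.903, Sucnr1 at 1.65 ± 1.56, and Il25 at 0.222 ± 0.337 CPM per kb. Every neighbouring pair in this order differed by less than the larger of its SDs. In WT colon the order per length began with Alox5ap at 3.49 ± 0.597 (SD, n = 6), followed by Dclk1 and Avil, both at 2.54, and Trpm5 at 2.2 ± 0.872 CPM per kb. Exon lengths join all isoforms annotated in GENCODE M21, so a gene transcribed mainly in a short form, as Dclk1 can be, is understated.

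The colon was compared with the small intestine in WT tissue. Of the 7 genes tested, 4 were called lower in the colon and none higher, by edgeR's quasi-likelihood test (Benjamini-Hochberg FDR under 0.05, change over 1.5-fold), in a comparison in which 27.6% of 15162 genes were called (15.6% lower in the colon). Sucnr1 differed most. It had 0 to 3 counts in each WT colon library (0 to 0.161 CPM) and 10 to 120 in each WT small intestine library, so the groups did not overlap. Over the pooled counts, 8 in colon and 325 in small intestine, it was 34.5-fold higher in the small intestine, with a 95% exact interval of 17.3 to 80.7 that covers counting error only, and its edgeR FDR was 9.89e-05. Sucnr1 met the count minimum for testing only through the small intestine libraries, where it was high. That it was called lower and not higher in the colon was thus set by the filter.

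Il17rb also did not overlap, with 1.27 to 2.4 CPM in WT colon and 3.15 to 13.1 in WT small intestine (log2 fold change -1.85, SE 0.294, edgeR FDR 0.000137). The share of all genes whose colon and small intestine libraries did not overlap is not given. Pou2f3 had 1.52 to 2.63 CPM in WT colon, where its highest libraries reached into the lower end of the small intestine (log2 fold change -1.60, SE 0.440, edgeR FDR 0.00805). Avil had 6.51 to 12.9 CPM in WT colon, again with some overlap (log2 fold change -1.61, SE 0.453, edgeR FDR 0.00949). The other genes did not pass. Trpm5 had 8.64 to 21.2 CPM in WT colon (log2 fold change -1.09, SE 0.479, edgeR FDR 0.0754), and Alox5ap 3.91 to 6.39 CPM (-1.11, SE 0.478, edgeR FDR 0.0712). Of 5 myeloid markers 4 were called lower in WT colon, with sums of 80.8 to 223 CPM against 159 to 409 in WT small intestine, and the part of myeloid RNA in the level of Alox5ap was not tested.

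Dclk1 had the smallest difference of the 7 genes. Its level in WT colon went from 25.0 over a median of 38.9 to 51.9 CPM, inside the range of WT small intestine, with a log2 fold change of -0.13 (SE 0.299, edgeR FDR 0.744). The direction turned with limma-voom (0.08) and without the 2 WT small intestine libraries highest in tuft genes (0.34), and leaving out single libraries gave -0.27 to 0.09. The ratio of Dclk1 to Trpm5 within a library was 2.12 to 3.71 in WT colon and 0.942 to 2.27 in WT small intestine, and in Btnl2-KO libraries 2.08 to 7.08 and 1.05 to 1.65. Dclk1 is also a gene of neurons, and the 5 enteric neuron markers listed for comparison all had log2 fold changes below 0 (median -0.38, 1 called lower), with summed levels of 37.8 to 54.0 CPM in WT colon and 46.6 to 71.5 in WT small intestine. Neuronal RNA's part in the level of Dclk1 was not tested.

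The ratio of Sucnr1 to Trpm5 went the other way, at 0 to 0.0149 in WT colon against 0.0466 to 0.157 in WT small intestine, and at 0 to 0.0117 against 0.0952 to 0.160 in Btnl2-KO libraries. Over all libraries of a group, WT colon held 8 counts of Sucnr1 and 1559 of Trpm5, and WT small intestine 325 and 3607. Btnl2-KO colon held 15 and 1597, and Btnl2-KO small intestine 532 and 4031.

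**Figure D2:**
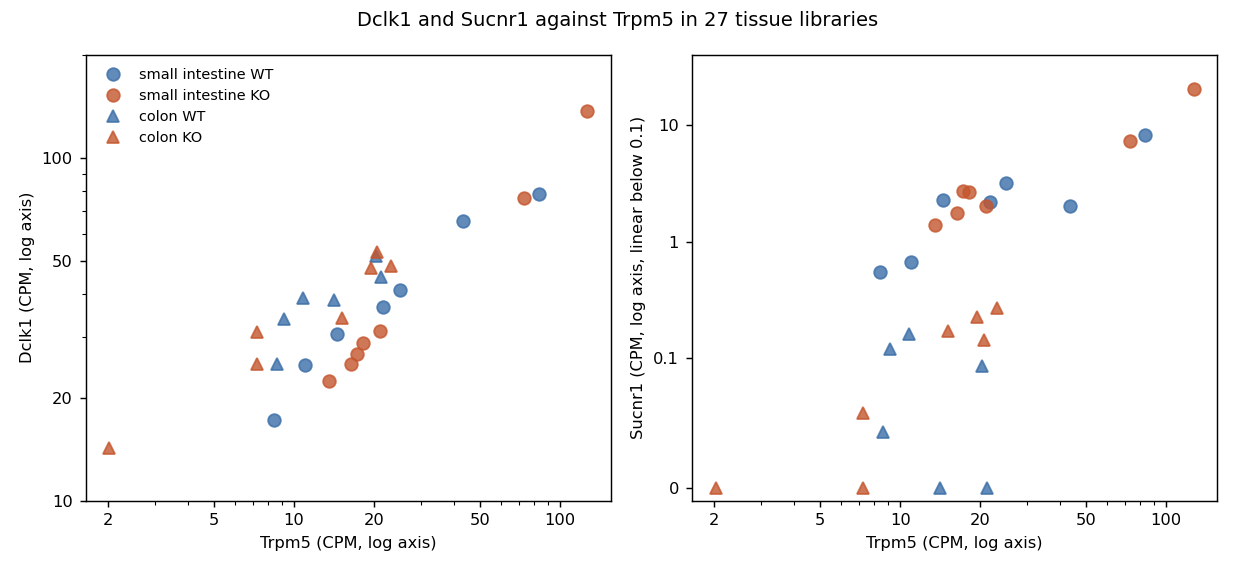
Dclk1 (left) and Sucnr1 (right) against Trpm5 in the 27 tissue libraries, in CPM on log axes (linear below 0.1 for Sucnr1). Circles are small intestine, triangles colon, blue WT, and orange Btnl2-KO libraries. At similar Trpm5, colon libraries lie higher for Dclk1 and lower for Sucnr1, whose highest colon library stood at 0.269 CPM and whose lowest small intestine library stood at 0.543 CPM.

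Epithelial markers were set beside these genes. Of 10 pan-epithelial genes 3 were called lower and 1 higher in WT colon, with a median log2 fold change of -0.34, and with their mean as a covariate Pou2f3, Il17rb, Sucnr1, and Avil were still the genes called. The same 4 were called without WT small intestine 1 and 7, the 2 WT libraries highest in tuft genes, but Pou2f3 and Avil then had log2 fold changes of -0.74 and -0.73 (edgeR FDR 0.0130 and 0.0262), and Trpm5 and Alox5ap of -0.23 and -0.04. The shares of all genes called in this fit and in the fit with the covariate are not given. Alox5ap and Trpm5 were called as well, 6 of 7 genes, without WT small intestine 2, 3, and 5, whose regional markers stand apart (28.0% of all genes called), without WT small intestine 5 alone (26.5%), and in a fit of both genotypes (29.1%). DESeq2 (27.9%) and the fit without WT small intestine 2 (27.9%) added Alox5ap alone, and the fit without WT small intestine 6 (27%) Trpm5 alone.

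Of 13 other tuft genes taken as a list, 12 were tested, 6 were called lower in WT colon and none higher, and their median log2 fold change was -0.99 against -0.02 over all genes. Among those called lower were Siglecf (log2 fold change -2.50), Matk (-1.50), Rgs13, a regulator of G-protein signalling (-1.42), Bmx (-1.26), and Kctd12 (-0.88). Of 9 chemosensory transduction genes 6 were tested, and Ffar3, a receptor of short-chain fatty acids (-1.41), and Plcb2, the phospholipase upstream of Trpm5 (-1.24), were called lower. Plcb2 had group means of 31.3 to 43.1 CPM in γδ IELs and 1.48 to 2.15 in IECs, and Matk was also high in γδ IELs. The T cell markers Cd3d, Cd3e, Cd3g, Cd8a, and Cd7 had means of 0.896 to 1.16 CPM in WT colon and 3.90 to 12.5 in WT small intestine. The part of T cell RNA in the levels of Plcb2 and Matk was not tested. Of 14 genes of the type 2 circuit 10 were tested. Il1rl1, the IL-33 receptor (-3.36), Gata3 (-1.73), Il33 (-1.48), and Il4ra (-1.09) were called lower and Tslp (0.59) higher.

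Along the small intestine, IEC libraries of WT mice were compared by segment. Dclk1 stood at 15.7, 11.5, and 9.28 CPM in the 3 duodenal, 6.98, 7.94, and 7.70 in the 3 jejunal, and 5.40 and 5.64 in the 2 ileal libraries. Trpm5 stood at 13, 13.2, and 6.96 CPM, then at 5.33, 6.48, and 4.29, and then at 5.07 and 3.57. Avil stood at 12.9, 8.30, and 7.11 CPM, then at 5.11, 6.61, and 7.09, and then at 5.0 and 3.86. For these 3 genes the duodenal libraries lay above the ileal ones. For Dclk1 and Avil the jejunal libraries did as well, for Avil only by 5.11 against 5.0 CPM. With 2 or 3 libraries in a group such separation arises easily by chance, and its share over all genes is not given. Alox5ap stood at 3.47, 3.39, and 2.28 CPM in the duodenum, at 1.17, 1.68, and 1.21 in the jejunum, and at 1.42 and 1.42 in the ileum, so that its jejunal and ileal libraries overlapped. Pou2f3 stood at 2.13, 1.38, and 1.41 CPM in the duodenum and at 0.401 and 1.13 in the ileum, and Il17rb was below 1 CPM in every WT library.

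All 6 genes tested had log2 fold changes below 0 in WT ileum against WT duodenum, with values of -1.35 (SE 0.371) for Trpm5, -1.13 (SE 0.294) for Dclk1, -1.09 for Pou2f3 and Alox5ap, -1.08 for Avil, and -0.35 for Il17rb. None passed edgeR's test (FDR 0.0934 to 0.765), in a comparison in which 4.42% of 12784 genes were called, and the median over all genes was -0.01. At an unadjusted p below 0.05 by edgeR were 4 of the 6 genes and 2126 of the 12784. The call depended on the tool and on the libraries. DESeq2 called Dclk1 and Trpm5 (8.15% of all genes), and limma-voom with sample quality weights called these with Avil and Alox5ap (13.7%). With both genotypes and without the 3 libraries that go against their labels, edgeR called the same 4 genes (14.6%), at FDRs of 0.00292 for Dclk1, 0.00421 for Trpm5, 0.00666 for Avil, and 0.0105 for Alox5ap. Without WT duodenum 2 it called Dclk1, Trpm5, and Avil (11.7%). With both genotypes and all libraries it called none, at FDRs of at least 0.352.

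From duodenum to jejunum the log2 fold changes of the 6 genes were -1.14 to -0.27, with no call (0.320% of 12505 genes called). DESeq2 (2.63%) and the fit of both genotypes without the 3 libraries (3.35%) called Alox5ap. From jejunum to ileum they were -0.80 to 0.07, with no call (1.13% of 12874 genes called), and the latter fit called Dclk1 (6.08%).

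Of the other tuft genes 11 were tested in WT ileum against WT duodenum, with none called and a median log2 fold change of -1.12. The lowest was Ltc4s, leukotriene C4 synthase (-1.84), and the highest were Hpgds (0.56) and Kctd12 (0.14). Of 5 chemosensory genes tested Ffar2, a fatty acid receptor (1.53), and of 9 type 2 genes Retnlb, a goblet cell product (2.25), were called higher in the ileum. Enteroendocrine markers, as those of another secretory lineage, had a median log2 fold change of -0.35 with no call. Of the 5 myeloid markers, listed because Alox5ap is also a myeloid gene, Itgam was at 87.9 and 79.6 CPM in WT ileum and 18.8 to 23.4 CPM in WT duodenum and Lyz2 at 6.53 and 6.04 against 3.86 to 5.13, while Csf1r, Adgre1, and Cd68 were near 1 CPM or below in both.

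In the 3 libraries that go against their labels, tuft genes were as follows. The Btnl2-KO library labelled ileum 1 held Dclk1 at 9.86, Trpm5 at 9.74, and Avil at 7.03 CPM, while the other Btnl2-KO ileal libraries held 4.62 and 5.16, 2.90 and 3.47, and 3.65 and 3.60 CPM. The library labelled Btnl2-KO duodenum 1 held Dclk1 at 6.65 and Trpm5 at 6.56 CPM, below the 3 WT duodenal libraries, and Avil at 7.14 CPM, just above the lowest of them. Btnl2-KO duodenum 2 held 13.5, 10.6, and 11.3 CPM. The library labelled Btnl2-KO jejunum 2 had the lowest Dclk1 of the 6 jejunal libraries at 4.97 CPM, but Trpm5 (5.21 CPM) and Avil (5.60) inside the range of the other 5 and the highest Alox5ap (1.89).

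**Figure D3:**
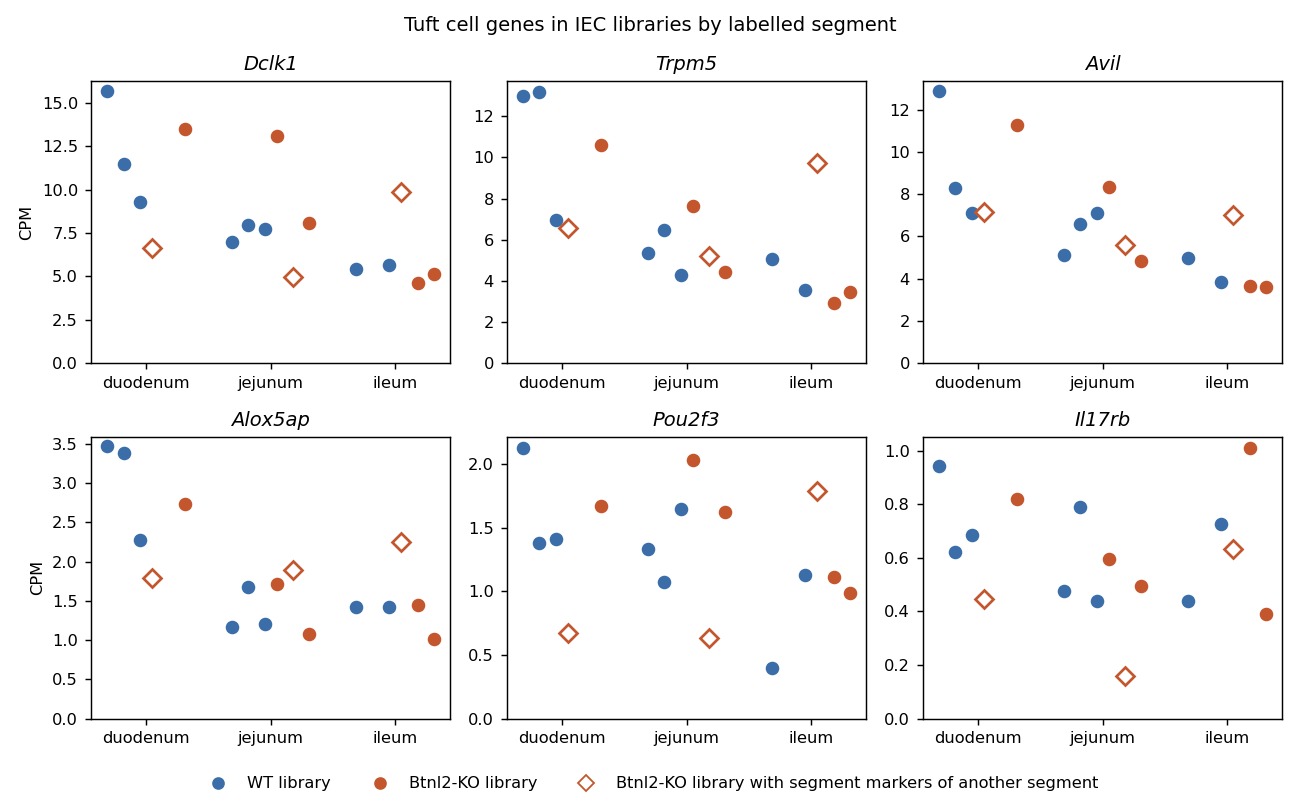
Level of 6 of the genes in the 16 IEC libraries by labelled segment, in CPM on axes from 0. Filled circles are WT (blue) and Btnl2-KO (orange) libraries, and open diamonds are the 3 Btnl2-KO libraries whose segment markers go against their label. The diamond in the ileum lies above the other ileal libraries for Dclk1, Trpm5, Avil, Alox5ap, and Pou2f3.

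Sucnr1 and Il25 were scarce in the IEC fraction. Sucnr1 had 44 counts over all 16 libraries, with at most 10 in 1 library, against 2639 of Trpm5, and Il25 had 6 counts. The ratio of Sucnr1 to Trpm5 was 0.00361 to 0.00546 in WT duodenum and 0.0216 and 0.0510 in WT ileum, and 0 to 0.0909 over all 16 libraries. These ratios rest on 1 count of Sucnr1 in each WT duodenal library and on 3 and 5 counts in the WT ileal ones. Il17rb to Trpm5 was 0.0303 to 0.349 in IECs and 0.147 to 0.656 in small intestine tissue. Tissue and IEC tables were normalized apart, so these are values side by side and not a test.

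In γδ IELs the 8 genes were near the limit of detection. Avil, the highest, reached 2.92 CPM with a median of 1.08, Trpm5 1.49 with a median of 0.604, and Dclk1 1.41 with a median of 0.605 over the 22 libraries. Il25 was at 0 in 21 libraries and Sucnr1 in 20. The sorted T cells also carried epithelial RNA, with 10 pan-epithelial genes summing to 584 to 7095 CPM (7321 to 11696 in IECs). Summed over the 8 genes there were 0.237 to 2.30 CPM for each 1000 CPM of the pan-epithelial sum in γδ IELs and 1.35 to 4.95 in IECs. Of the other tuft genes, Lrmp (199 to 397 CPM), Matk (66.1 to 197), and Hpgds (27.2 to 59.4) stood far above the 8 genes in this fraction. Between WT ileum and WT duodenum 3 of the 8 genes were tested in γδ IELs, with none called (2.16% of 12535 genes called), and Avil was at -1.07 (SE 0.727, edgeR FDR 0.713), or -2.44 without WT ileum 1 and -0.69 to -1.27 without any other single library.

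Genotype was compared next, in each fraction and segment. In small intestine tissue, Dclk1 went from 22.3 over a median of 28.8 to 137 CPM in Btnl2-KO mice and Trpm5 from 13.5 over 18.1 to 127 CPM, so that both covered most of the WT range. Log2 fold changes of the 7 genes tested were 0.01 for Alox5ap to 0.46 for Trpm5 and 0.99 for Sucnr1 (SE 0.677, edgeR FDR 0.373, but 0.11 without Btnl2-KO 3), and none was called (0.0202% of 14866 genes called, 3415 at an unadjusted p below 0.05). All 7 groups overlapped. In the colon, the 6 genes tested had log2 fold changes of -0.11 for Dclk1 to 0.19 for Pou2f3, with standard errors of 0.186 to 0.420, and none was called (0.0269% of 14871 genes called, 616 at an unadjusted p below 0.05). Trpm5 there went from 2.02 over 15.1 to 23.2 CPM in Btnl2-KO and from 8.64 over 12.4 to 21.2 CPM in WT libraries. The lowest value belonged to Btnl2-KO colon 2, which also had the lowest Dclk1 (14.3 CPM), Avil (3.28), and Alox5ap (2.35) of the 13 colon libraries. Without it the log2 fold changes were 0.02 for Dclk1 and 0.12 for Trpm5.

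In IECs, the 6 genes tested had log2 fold changes of -0.46 to -0.02 in the duodenum, -0.36 to 0.23 in the jejunum, and 0.11 to 0.75 in the ileum, with none called by edgeR (0%, 0%, and 0.00774% of all genes called; 154, 1054, and 268 genes at an unadjusted p below 0.05). DESeq2 and limma-voom called none either. Several of these directions changed without the libraries that go against their labels. Without them Dclk1 was at 0.15 and Avil at 0.26 in the duodenum, with 1 Btnl2-KO library left, the 6 genes at -0.07 (Il17rb) to 0.50 (Dclk1) in the jejunum, and Dclk1 at -0.18, Trpm5 at -0.44, and Avil at -0.29 in the ileum, with none called. In γδ IELs, 4, 3, and 1 of the genes were tested in duodenum, jejunum, and ileum, with none called (0.00789%, 0.00794%, and 0% of all genes). Limma-voom called Trpm5 in the ileum at a log2 fold change of -3.53 (FDR 0.0391, 9.58% of all genes), where edgeR gave -1.27 (SE 0.987, FDR 0.700) and -2.84 to -0.67 when single libraries were left out, the lowest without Btnl2-KO 2 and the highest without Btnl2-KO 1. Trpm5 had 0, 11, and 4 counts in the Btnl2-KO and 25, 12, 7, and 8 in the WT libraries, which overlap. Between the groups epithelial RNA went the same way. Of 10 pan-epithelial genes 9 had log2 fold changes below 0 (median -1.25, none called). Their sum was 879 to 3057 CPM in Btnl2-KO and 2719 to 7095 in WT libraries. Within the groups the libraries did not follow this. Krt8 and Epcam were lowest in Btnl2-KO 2 (170 and 175 CPM) and in WT 1 (1003 and 344 CPM). These libraries had the most Trpm5 of their groups. The part of epithelial RNA in the level of Trpm5 was not tested.

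The interaction of genotype with colon against small intestine was not called for any of 7 genes (0.0193% of 15540 genes called, lowest FDR of the 7 at 0.811), and that of genotype with ileum against duodenum in IECs for none of 6 (0% of 13216 genes called, FDR 1.0).

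**Figure D4:**
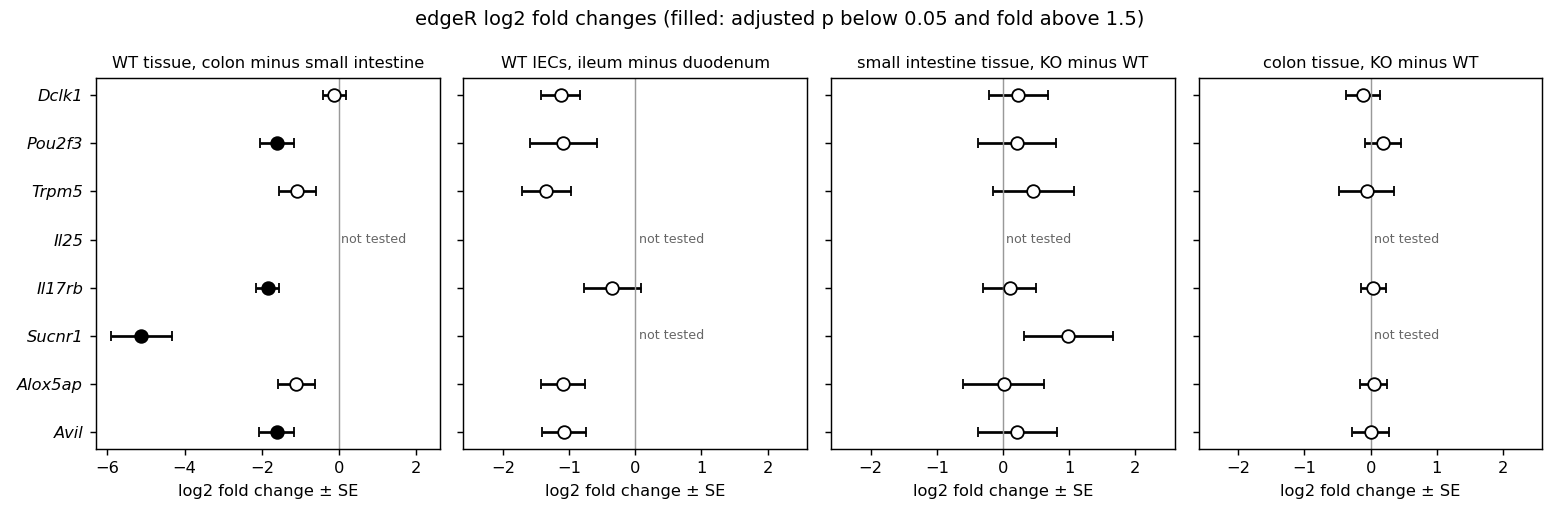
Log2 fold changes (points) with their standard errors (bars) of the 8 genes in 4 comparisons, by edgeR. Filled points passed an FDR of 0.05 and a fold change of 1.5, and genes under the count minimum are marked as not tested. Filled points are found for Pou2f3, Il17rb, Sucnr1, and Avil in WT colon against WT small intestine and in no comparison of genotypes, and the first panel has a wider axis.

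Within the small intestine tissue, libraries of one genotype differed by more than the genotypes did. Btnl2-KO 3 and 7 and WT 1 and 7 had the highest Dclk1 of the 14 libraries (137, 76.6, 78.6, and 65.3 CPM), and the other 10 libraries lay between 17.2 and 41.1 CPM. Trpm5 was at 127, 73.3, 83.4, and 43.4 CPM in these 4 and at 8.37 to 25.1 in the other 10, and Avil at 96.0, 51.2, 71.4, and 40.1 against 9.17 to 19.7. Pou2f3 was at 22, 14.7, 16.7, and 10.9 CPM and at 2.28 to 4.64 in the other 10. The same 4 libraries were the highest for Il17rb and Alox5ap. Sucnr1 was at 20.3, 7.21, and 8.13 CPM in Btnl2-KO 3, Btnl2-KO 7, and WT 1, but at 2.02 in WT 7, inside the range of the other 10 (0.543 to 3.17 CPM).

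In these 4 libraries 11 of 13 other tuft genes were also higher than in all other small intestine libraries, among them Rgs13 (65.0, 35.0, 37.3, and 23.9 against at most 11.7) and Siglecf (57.3, 24.0, 30.8, and 9.97 against at most 8.80). Of the chemosensory genes 3 of 9 were (Plcb2, Ffar3, and Gng13). Of the type 2 genes 4 of 14 were, namely Il13, Il5, and the goblet cell genes Retnlb and Clca1. The chemosensory gene Itpr3 went the other way, at 161, 153, 141, and 163 CPM in these 4 and at 169 to 226 in the other 10. Retnlb stood at 22.4, 51.4, 156, and 37.8 CPM and at 0 to 10.5 in the other 10 libraries, Clca1 at 10573, 10135, 9212, and 3980 against at most 3821, and Il13, with few counts, at 1.27, 0.775, 1.49, and 2.12 against at most 0.382. Il1rl1 was high in Btnl2-KO 3 (60.3 CPM), Btnl2-KO 7 (23.2), and WT 1 (150) but not in WT 7 (5.03). Of the other marker lists, 1 of 10 pan-epithelial and 1 of 5 mast cell genes were highest in all 4 of these libraries. None of the enteroendocrine, neuron, smooth muscle, myeloid, B cell, T cell, or segment markers were. The 4 libraries were picked for their high levels of tuft genes, and the share of all genes that were highest in them is not given. The counts thus compare these lists with each other and not with all genes. Short of all 4, Btnl2-KO 7, WT 1, and WT 7 were highest for the smooth muscle genes Acta2, Actg2, Des, and Myh11. Des was at 1470, 2020, and 1164 CPM there, at 586 in Btnl2-KO 3, and at 386 to 789 in the other 10. The myeloid genes Itgam and Lyz2 were lower in Btnl2-KO 3, Btnl2-KO 7, and WT 1 than in the other 10. Itgam was at 20.4, 26.8, and 17.6 against 27.6 to 87.3 CPM, while Csf1r, Adgre1, and Cd68 lay inside the range. The labels name nothing that the 4 libraries high in tuft genes share, and they were not treated as a group. Without them the log2 fold changes between genotypes in small intestine were -0.24 to 0.23, with none called. Since they were left out for their levels of the same genes, this range cannot speak to an effect of genotype.

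**Figure D5:**
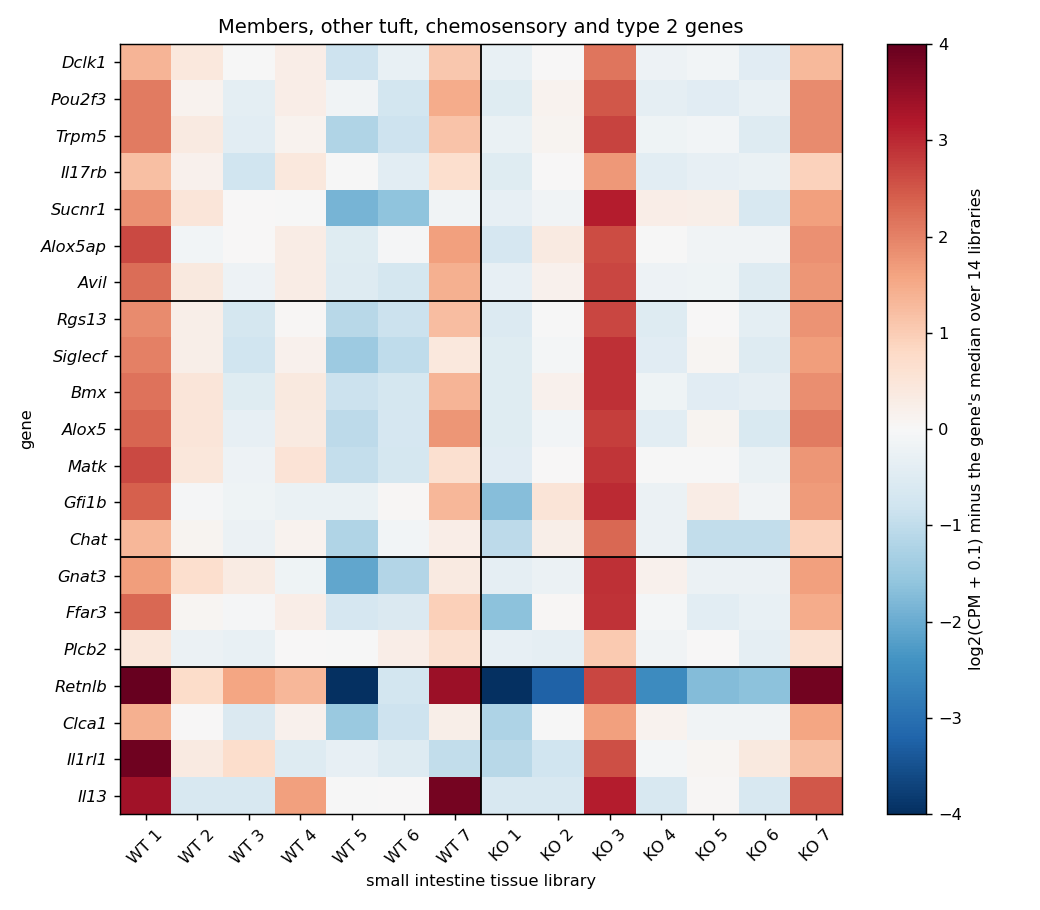
Log2(CPM + 0.1) of 7 of the genes (top block), other tuft genes, chemosensory genes, and type 2 genes in the 14 small intestine tissue libraries, each less the gene's median over the 14 (colour, from -4 to 4). Columns are libraries, WT left and Btnl2-KO right of the line. The rows below the top block are a choice of genes from each list. Ptgs1, Hpgds, and Itpr3, which were not higher in all of WT 1, WT 7, KO 3, and KO 7, are not shown. Those 4 libraries are red for nearly all tuft genes shown and for Retnlb and Il13.

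How far the genes moved together is given as a correlation over libraries that share a table, and as a description. Over the 14 small intestine libraries, the log2(CPM + 1) of each gene correlated with the mean of the other 7 at Pearson's r of 0.90 to 0.99, except Il25 at 0.78, and without the 2 libraries farthest from the median Sucnr1 fell to 0.73 and Il25 to 0.17. Over the 13 colon libraries r was 0.95 for Dclk1, 0.96 for Trpm5, and 0.95 for Avil, and 0.61 to 0.86 for the other 5, of which Il17rb fell from 0.66 to 0.32 without the 2 farthest libraries. Over the 16 IEC libraries r was 0.93 for Dclk1, 0.90 for Avil, 0.88 for Trpm5, 0.81 for Alox5ap, 0.58 for Pou2f3, 0.55 for Il25, 0.38 for Il17rb (0.11 without the 2 farthest libraries), and -0.25 for Sucnr1. Sucnr1 thus followed the others in small intestine tissue and did not in IECs, where its counts were few.

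The genes most like the mean of the 8 in tissue, centred within each tissue, were Bmx (r = 0.980), Rgs13 (0.977), Itprid1 (0.975), Strip2 (0.974), and Sh2d7 (0.973), over 27 libraries and 14335 genes. In IECs, not centred on segment, they included Rec8 (r = 0.916), Adh1 (0.911), Ugdh (0.910), and Pygl (0.910), over 16 libraries and 11475 genes. Without the 2 libraries farthest from the median these 4 had r of 0.840 to 0.890. Differences between segments enter these values too. Bmx and Rgs13 were among the other tuft genes listed.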

How the data were processed

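The 65 bulk RNA-sequencing libraries were used, and the 6 single-cell samples of the series were not used. In ArrayStudio, the authors aligned reads to their own version of the mouse genome (GRCm38 in the submitters' notes) and estimated sense-strand exon reads with RSEM. The deposited values are expected counts, not normalized, of which 5.0% (γδ IEL), 14.9% (IEC), and 17.2% (tissue) were not whole. They were rounded here. The labels and the paper name different library kits and, for γδ IEL mice, ages, and 1 column of the γδ IEL table matched no sample and was left out. Samples were grouped by their labels. Nothing in the labels links libraries to animals across groups, so p-values measure the spread between these libraries. The 100 identifiers without a symbol held 0.253 to 9.24% of the counts and were kept.

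A gene was tested when the number of libraries with 10 counts or more reached the size of the smaller group. The 2 groups compared were fitted by edgeR 4.0.16 (quasi-likelihood, TMM), and a call needed a Benjamini-Hochberg FDR under 0.05 and a change over 1.5-fold. The standard error is the fold change over the root of F. The method was tested on simulated data with 200 genes changed and a fixed spread that the real libraries need not have. For WT IECs of ileum against duodenum it recovered 100% of 4-fold and 36% of 2-fold changes, with 6.2% false among calls. For genotype in small intestine tissue these values were 100%, 99%, and 5.2%. All 122 pairs of replicates differed by more than sampling noise (chi-square per degree of freedom 5.08 to 340). Alternatives were DESeq2 1.42.0, limma-voom (limma 3.58.1) with sample quality weights, size factors by relative log expression, other count filters, no minimum on the fold change, one fit per table, each library left out, libraries in doubt left out, both genotypes together, and the mean of 10 pan-epithelial genes as a covariate. Leaving out tissue libraries with unusual regional markers, and those highest in tuft genes, was chosen after the values were seen, as was the motif search. The 8 genes, the other lists, and the rules were chosen with earlier results of these data known. Named are the 8 genes, Btnl2, list genes past the thresholds (otherwise the 2 highest and 2 lowest), and the 5 genes most like the mean of the 8. Lists were described by counts and medians, without a set test. Sh2d6 of the other tuft genes is not analysed here. One gene that the rule names is not reported here.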

Additional observations from a re-analysis of the deposited data

Results flagged for a closer look

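In 2 of 40 combinations of gene and tissue or γδ IEL group with enough counts, 1 library lay far from the others of its group (Dixon's ratio at the 95% level, which chance passes in about 1 of 20 groups). Both are Sucnr1 in small intestine tissue. In Btnl2-KO mice, library 3 stood at 20.3 CPM, and the gap to the next library was 0.692 of the group's range. In WT mice, library 1 stood at 8.13 CPM, with a gap of 0.654 of the range. Both libraries are among the 4 that are high in the other tuft genes as well. No interaction of genotype with segment or tissue passed the threshold for any of the 8 genes.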

How the results depend on the processing

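Counts of the 8 genes called were unchanged or within 1.5 times in 219 of 227 alternative fits. The exceptions were 2 (DESeq2), 4 (limma-voom), and 4 genes (both genotypes without the libraries in doubt) for WT ileum against duodenum in IECs, where leaving out single libraries gave 0 to 3, 1 gene for jejunum against duodenum by DESeq2 and by the latter fit, 1 for ileum against jejunum by the latter fit, and 1 for Btnl2-KO against WT ileal γδ IELs by limma-voom. Of 1138 log2 fold changes of single genes under the alternatives 1003 kept direction and call, 26 became called, none lost its call, and 109 changed sign, none of them called. Group means without TMM moved by more than 1 SD in 2 of 128 cases (Dclk1 and Alox5ap in WT ileal IECs).

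Sign changes, as log2 fold changes of Btnl2-KO against WT, were as follows. Without the libraries in doubt, values in duodenal IECs were 0.15 (Dclk1), 0.03 (Pou2f3), 0.13 (Il17rb), and 0.26 (Avil), in ileal IECs -0.18 (Dclk1), -0.44 (Trpm5), -0.22 (Alox5ap), and -0.29 (Avil), in small intestine -0.06 (Pou2f3 and Il17rb), -0.34 (Alox5ap), and -0.05 (Avil), and in colon 0.02 (Dclk1) and 0.12 (Trpm5). With limma-voom they were -0.13 (Dclk1), -0.34 (Trpm5), -0.07 (Il17rb), -0.29 (Alox5ap), and -0.25 (Avil) in ileal IECs, 0.43 (Alox5ap) in jejunal γδ IELs, -0.10 (Dclk1), -0.01 (Pou2f3 and Avil), and -0.05 (Il17rb) in small intestine, and 0.05 (Dclk1) and 0.26 (Trpm5) in colon. With the pan-epithelial covariate they were -0.66 (Trpm5) and -0.72 (Avil) in duodenal γδ IELs, 0.02 (Dclk1 and Trpm5) in colon, and -0.12 (Alox5ap) in small intestine. Without the libraries highest in tuft genes, small intestine gave -0.18 (Dclk1), -0.16 (Pou2f3), -0.24 (Il17rb), -0.06 (Alox5ap), and -0.12 (Avil). With no count filter Avil was at -0.00 in jejunal IECs and colon.

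Between segments or tissues, Dclk1 in WT colon against small intestine was at 0.08 with limma-voom and 0.34 without the libraries highest in tuft genes, Alox5ap in ileum against jejunum at -0.06 with both genotypes without the libraries in doubt, and Trpm5 in γδ IELs of ileum against duodenum at -0.56 with both genotypes.

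Leaving out single libraries, the ranges that crossed 0 were, for duodenal IECs by genotype, -0.84 to 0.15 (Dclk1), -1.26 to 0.03 (Pou2f3), -0.71 to 0.13 (Il17rb), and -0.37 to 0.28 (Avil), for jejunal IECs -0.20 to 0.50 (Dclk1), -0.21 to 0.46 (Pou2f3), -0.18 to 0.26 (Trpm5), and -0.28 to 0.15 (Avil), and for ileal IECs -0.18 to 0.46 (Dclk1), -0.44 to 0.62 (Trpm5), -0.21 to 0.63 (Il17rb), -0.22 to 0.39 (Alox5ap), and -0.29 to 0.30 (Avil). For γδ IELs they were -0.17 to 0.53 (Dclk1), -0.66 to 0.17 (Alox5ap), and -0.39 to 0.50 (Avil) in duodenum and -0.87 to 0.01 (Alox5ap) in jejunum. For small intestine they were -0.27 to 0.46 (Dclk1), -0.35 to 0.65 (Pou2f3), -0.16 to 0.99 (Trpm5), -0.33 to 0.33 (Il17rb), -0.57 to 0.63 (Alox5ap), and -0.42 to 0.72 (Avil), and for colon -0.23 to 0.02 (Dclk1), -0.23 to 0.12 (Trpm5), -0.05 to 0.11 (Il17rb), -0.08 to 0.15 (Alox5ap), and -0.11 to 0.14 (Avil). In WT mice they were -0.39 to 0.34 (Il17rb) and -0.04 to 0.26 (Alox5ap) for ileum against jejunum in IECs, -0.38 to 0.53 (Trpm5) for ileum against duodenum in γδ IELs, and -0.27 to 0.09 (Dclk1) for colon against small intestine. Without WT ileum 2, Pou2f3 in IECs was at -1.98 against duodenum, -1.73 against jejunum, and 1.68 for Btnl2-KO against WT. A fit that leaves 1 library in a group assumes that it varies like the others. The causes were not tested.

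No paired analysis was possible because the library numbers are unique and no label links a library of one group to one of another. Depth limits Il25 in every table, Sucnr1 outside the small intestine tissue, and most of the genes in γδ IELs.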
